A study of Mus musculus with 18 samples.

Results

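The genes described here encode the subunits and activators of the proteasome, the complex that cleaves ubiquitin-tagged proteins. They were taken by name: every gene whose platform symbol is Psma, Psmb, Psmc, Psmd or Psme followed by digits, with the probe of highest mean over all arrays standing for a gene that has several. The rule found 36 genes among the 13032 genes of the value table that have a single symbol. They comprise 11 genes of the 20S core (4 alpha and 7 beta subunits), 16 genes of the 19S cap (6 ATPases and 10 non-ATPases), 3 assembly factors with a Psmd symbol, 4 immunoproteasome genes (Psmb8, Psmb10, Psme1 and Psme2) and 2 other activators (Psme3 and Psme4). Psmb9, the remaining gene of the immunoproteasome, was not analysed here.

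RNA levels were measured on Illumina bead arrays in C2C12, a mouse myoblast line that stops dividing and forms muscle cells when serum is lowered. Day 1 cells had spent 24 h in medium with 2% serum and were 48 h past transfection with an RNAi against STAC3 (4 samples) or with a high-GC control RNAi (4 samples). Day 0 cells were 24 h past the same transfections (4 samples with STAC3 RNAi, 3 with control RNAi) and still in medium with 20% serum. Stac3 encodes an adaptor at the junctions where membrane depolarisation releases calcium for contraction. All groups are transfected cells of 1 line, and no untransfected group is part of the design. The 2 days differ in both medium and time since transfection, and what each contributed cannot be told apart.

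In the proteasome, rings of alpha subunits gate a barrel of beta subunits, of which Psmb5, Psmb6 and Psmb7 carry the cutting sites. The 19S cap binds ubiquitin chains, removes them and uses 6 ATPases to unfold the substrate and thread it into the core. Under interferon, Psmb8, Psmb9 and Psmb10 replace the standard cutting subunits and Psme1 and Psme2 form a ring that opens the core without ubiquitin, which changes the peptides offered to T cells. In muscle the proteasome clears regulators during differentiation and breaks down myofibrils during wasting.

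Values are the authors' normalised log2 values, differences are differences of group means on that scale with their standard error (SE), and a gene passed where its limma p-value, adjusted by the Benjamini-Hochberg method over 18408 probes, was below 0.05. All 36 genes were tested, and 34 were detected on all 18 arrays. Psmc6 was detected on 14 arrays and Psmb8 on 5, so these genes lay near the detection limit. Between 15146 and 16802 probes were detected per array. Stac3 had 6.74, 6.74, 6.70 and 6.81 in STAC3 RNAi cells at day 1, against 7.53, 7.69, 7.52 and 7.97 in control cells, and 6.70, 6.68, 6.79 and 6.75 in STAC3 RNAi cells at day 0, against 7.04, 6.98 and 7.15 in control cells. Every RNAi sample lay under every control sample of its day. Stac3 was detected on 9 of 18 arrays, so its low values lay near the detection limit. They need not show the full size of the knockdown. Of 9 muscle markers 8 had a probe and 5 were detected on all 18 arrays, while the 3 immune and 2 endothelial markers with a probe were each detected on fewer than 3 arrays. The 7 muscle markers tested averaged between 9.82 and 10.34 in STAC3 RNAi samples at day 1, between 10.51 and 10.99 in control samples at day 1, between 9.27 and 9.61 in STAC3 RNAi samples at day 0 and between 9.39 and 9.67 in control samples at day 0. At day 1, 5 of these 7 passed as lower in STAC3 RNAi cells. The 6 fibroblast markers tested averaged between 8.69 and 8.95 in STAC3 RNAi samples at day 1, between 8.30 and 8.59 in control samples at day 1, between 7.56 and 7.76 in STAC3 RNAi samples at day 0 and between 7.63 and 7.68 in control samples at day 0. Of 3 smooth muscle markers tested 1 rose with STAC3 RNAi at day 1, and no adipocyte (1 tested) or epithelial (2 tested) marker did. Of the 6 fibroblast markers 2 passed as higher with STAC3 RNAi at day 1 and 1, Col3a1, as lower (median 0.20), while day 1 minus day 0 4 passed as higher in STAC3 RNAi cells and 2 in control cells. The part of these shifts in the results below was not tested.

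**Figure D1:**
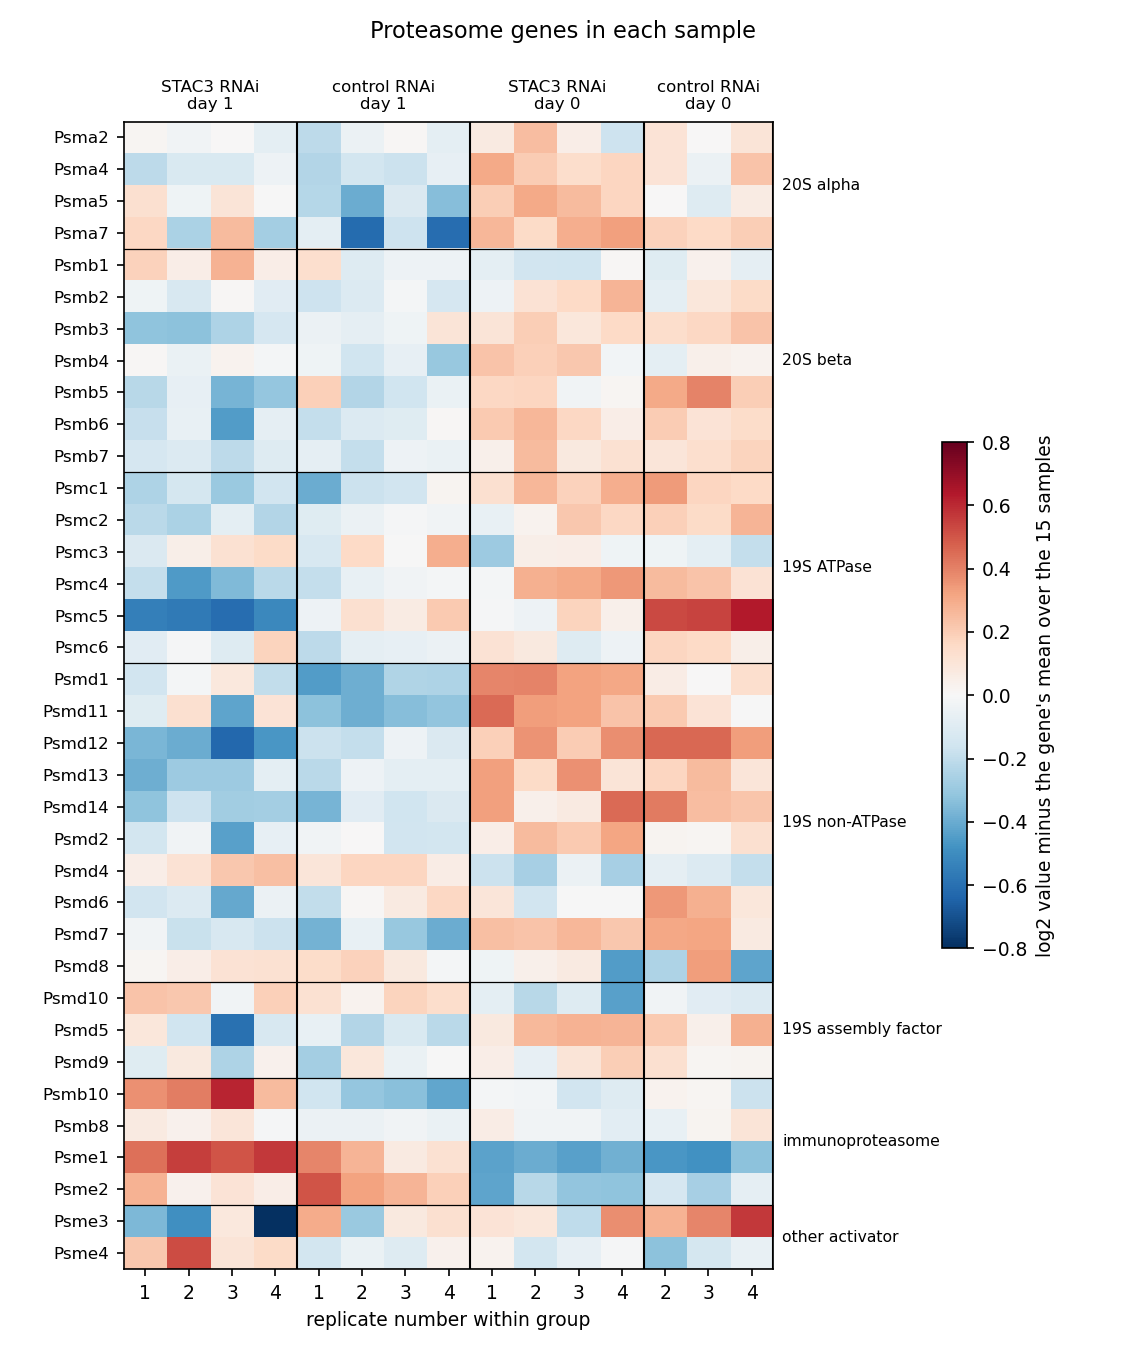
Each row is a proteasome gene and each column a sample; colour gives the log2 value minus the gene's mean over the 15 samples, red for higher and blue for lower. Core and cap rows are mostly blue at day 1 and red at day 0, while Psme1 and Psme2 run the other way and Psmb10 is clearly red in the 4 STAC3 RNAi samples of day 1 and close to or below its mean in the others.

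The first comparison asks how proteasome genes differed after a day in differentiation medium. Most core and cap genes were lower at day 1, by modest amounts, in both RNAi and control cells. In STAC3 RNAi cells 20 of 36 genes (55.6%) fell and 7 rose, where 45.3% of all 10146 genes tested passed, 21.1% as lower and 24.2% as higher. In control cells 20 of 36 (55.6%) fell and 3 rose, where 39.8% of all genes passed, 19.1% as lower and 20.7% as higher. On RNA from whole dishes, fewer cells of a type and less RNA per cell cannot be told apart. The median difference of the 36 genes, day 1 minus day 0, was -0.27 in STAC3 RNAi cells and -0.24 in control cells, beside medians over all genes of 0.02 in STAC3 RNAi cells and 0.00 in control cells.

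Core and cap genes fell in like numbers. In each kind of cell 7 of 11 core genes and 11 of 16 cap genes fell. Averaged over the 11 core genes, the deviation from each gene's mean was -0.08 ± 0.02 in STAC3 RNAi cells at day 1 and -0.13 ± 0.06 in control cells at day 1, against 0.13 ± 0.03 in STAC3 RNAi cells at day 0 (SD, n = 4 each) and 0.10 ± 0.03 in control cells at day 0 (SD, n = 3). Averaged over the 16 cap genes it was -0.16 ± 0.05 in STAC3 RNAi cells at day 1 and -0.09 ± 0.06 in control cells at day 1, against 0.13 ± 0.02 in STAC3 RNAi cells at day 0 and 0.16 ± 0.06 in control cells at day 0. No day 1 sample overlapped a day 0 sample on either average.

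The arrays fall into 2 sets by their lowest raw intensity, 12 arrays at 44.0 to 52.1 and 6 arrays at 32.1 to 36.0. The labels do not name these sets, and each holds all 4 groups. Within the 12 arrays 20 of 36 genes fell in STAC3 RNAi cells and 18 in control cells, with median differences of -0.24 and -0.21. Within the 6 arrays, which hold 1 or 2 arrays of each group, the median differences were -0.29 in STAC3 RNAi cells and -0.24 in control cells. The share of all genes passing was not counted in these or the other alternative fits, so their counts stand without it. The non-normalised table, whose column names differ for 12 of 18 arrays, gave 3 passing genes in STAC3 RNAi cells and 0 in control cells when taken by those names (limma, 12 and 0 at an unadjusted p below 0.05), and 0 for STAC3 RNAi against control on either day.

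**Figure D2:**
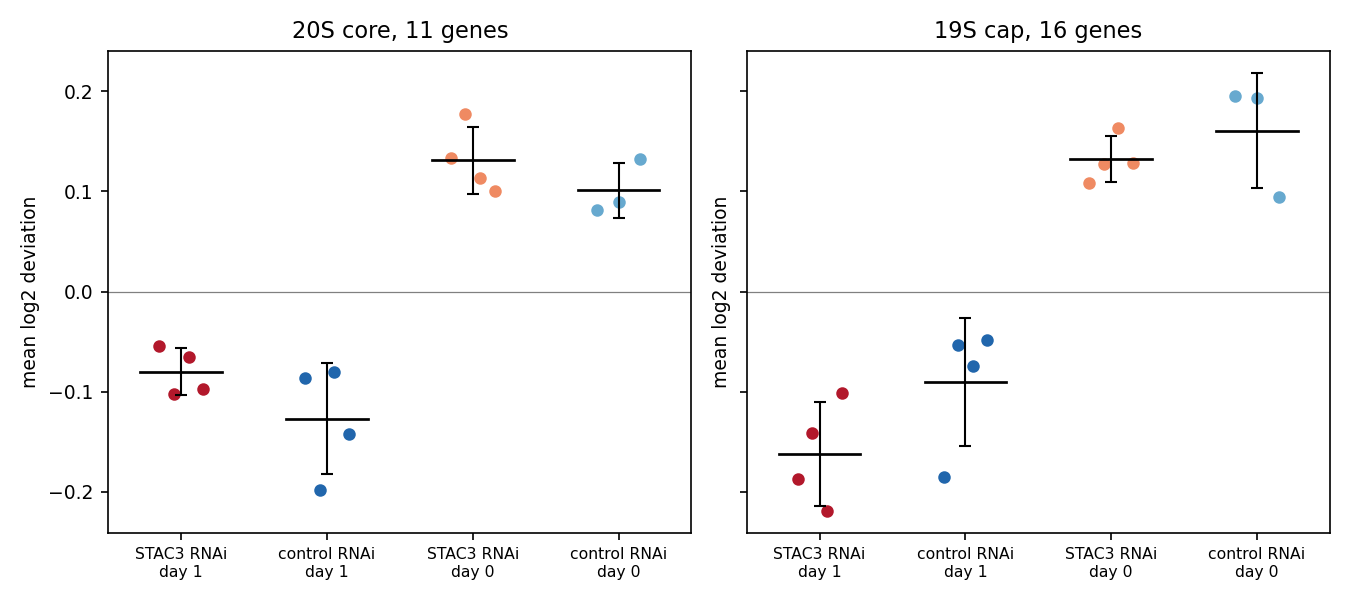
Each point is a sample, placed by the mean log2 deviation of the 11 core genes (left) or 16 cap genes (right) from each gene's mean over the 15 samples; lines and bars give the group mean and SD. All 8 day 1 samples lie below 0 and all 7 day 0 samples above it in both panels.

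Among alpha subunits, which form the gated outer rings, Psma4 and Psma5 fell in both kinds of cell, though both control falls were lost without control day 0 replicate 4, that of Psma4 also within the 12 arrays (adjusted p up to 0.0684), and the fall of Psma5 in STAC3 RNAi cells without day 0 replicate 2 or 3 or day 1 replicate 2 or 4 (adjusted p up to 0.0994). Psma7 fell in control cells (-0.55, SE 0.14, adjusted p = 0.00639). Psma7 had 11.76, 11.35, 11.85 and 11.32 in STAC3 RNAi cells at day 1, against 11.86, 11.75, 11.88 and 11.92 in STAC3 RNAi cells at day 0, and 11.52, 10.98, 11.43 and 10.98 in control cells at day 1, against 11.78, 11.76 and 11.79 in control cells at day 0. Its day 1 samples spread over more than 0.5 in each group, while its day 0 samples lay close together. In both day 1 groups the higher samples were replicates 1 and 3, those with an array in the set of 6. In STAC3 RNAi cells the Psma7 difference of -0.28 missed the threshold (adjusted p = 0.0991). The second probe of Psma7 passed as lower in both, by 0.38 in STAC3 RNAi cells (adjusted p = 0.0108) and by 0.48 in control cells (adjusted p = 0.0042).

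All 3 cutting subunits fell in both kinds of cell. Psmb5, which carries the chymotrypsin-like site, had 8.64, 8.79, 8.49 and 8.55 in STAC3 RNAi cells at day 1, against 9.03, 9.03, 8.83 and 8.87 at day 0, and 9.05, 8.63, 8.70 and 8.80 in control cells at day 1, against 9.16, 9.26 and 9.06 at day 0. Every day 1 sample lay under every day 0 sample of its kind, control replicate 1 at day 1 only narrowly. Psmb5 fell by 0.32 (SE 0.09, adjusted p = 0.00876) in STAC3 RNAi cells and by 0.36 (SE 0.10, adjusted p = 0.00768) in control cells. Psmb6, with the caspase-like site, fell by 0.36 in STAC3 RNAi cells and by 0.25 in control cells, and Psmb7, with the trypsin-like site, by 0.26 in STAC3 RNAi cells and by 0.23 in control cells (limma adjusted p between 0.0012 and 0.0303). The control fall of Psmb6 was lost with cyclic loess and when any of control day 0 replicates 2, 3 and 4 or control day 1 replicates 1, 2 and 3 was left out (highest adjusted p = 0.104). Of the structural beta subunits Psmb3 fell in both kinds of cell, Psmb2 fell in STAC3 RNAi cells, and Psmb1 rose in STAC3 RNAi cells (0.24, SE 0.07, adjusted p = 0.00928) with a difference of 0.03 in control cells (adjusted p = 0.767). The control fall of Psmb3 was lost in 6 of 24 alternatives (adjusted p up to 0.131), among them without control day 0 replicate 4 or control day 1 replicate 2. The fall of Psmb2 in STAC3 RNAi cells was lost in 8 of 24 (adjusted p up to 0.135), 6 of them without a STAC3 RNAi sample (day 0 replicate 2, 3 or 4, day 1 replicate 1, 2 or 4). By its chosen probe Psmb2 differed by -0.16 in control cells (adjusted p = 0.112). Its second probe passed as lower in both kinds of cell without overlap. That probe gave -0.31 in STAC3 RNAi cells (adjusted p = 0.00104) and -0.32 in control cells (adjusted p = 0.00172).

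In the cap, the ATPases Psmc1, Psmc2, Psmc4 and Psmc5 fell in both kinds of cell, Psmc6 fell in control cells, and Psmc3 differed by 0.11 in STAC3 RNAi cells and 0.18 in control cells without passing. In control cells the fall of Psmc6 (-0.22) was lost with the replicate block (-0.21, adjusted p = 0.0569) and without control day 0 replicate 2 or 3 or control day 1 replicate 1 (adjusted p up to 0.11), and with the block Psmc3 passed as higher (0.25, adjusted p = 0.0171). The control fall of Psmc4 was lost in 4 of 24 alternatives (adjusted p up to 0.0889): within the 12 arrays and without control day 0 replicate 2 or 3 or control day 1 replicate 1. Among the non-ATPases, Psmd12, a scaffold subunit of the lid, showed the largest fall. It had 10.37, 10.34, 10.11 and 10.27 in STAC3 RNAi cells at day 1, against 10.92, 11.09, 10.94 and 11.10 at day 0, and 10.56, 10.54, 10.69 and 10.62 in control cells at day 1, against 11.20, 11.19 and 11.07 at day 0. The days did not overlap in either kind of cell, and the STAC3 RNAi samples of day 1 were the lowest of all. Psmd12 was 1.67-fold lower at day 1 in STAC3 RNAi cells (-0.74, SE 0.07, adjusted p = 2.54e-07) and 1.46-fold lower in control cells (-0.55, SE 0.07, adjusted p = 2.08e-05).

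Psmd14, the deubiquitinase that cuts the chain off the substrate, fell by 0.48 in both kinds of cell (SE 0.09 in STAC3 RNAi and 0.10 in control cells, adjusted p = 0.000414 and 0.000998). Its lid partner Psmd7 fell by 0.36 in STAC3 RNAi cells and by 0.52 in control cells. Psmd1, the large scaffold of the base, fell by 0.43 in STAC3 RNAi cells and by 0.40 in control cells. Psmd11, which clamps the lid to the core, fell by 0.40 in STAC3 RNAi cells and by 0.45 in control cells. Its second probe did not pass (-0.09 in STAC3 RNAi cells, adjusted p = 0.528, and -0.21 in control cells, adjusted p = 0.142). Psmd4, a ubiquitin receptor of the cap, was the exception, with 12.42, 12.48, 12.58 and 12.61 in STAC3 RNAi cells at day 1, against 12.19, 12.10, 12.32 and 12.10 at day 0, and 12.46, 12.54, 12.54 and 12.42 in control cells at day 1, against 12.29, 12.26 and 12.18 at day 0. All its day 1 samples exceeded the day 0 samples of their kind, and it rose by 0.34 in STAC3 RNAi cells (adjusted p = 0.000296) and by 0.25 in control cells (adjusted p = 0.00775). Psmd6 and Psmd8, both lid subunits, passed in neither kind of cell, and Psmd2, the docking site for ubiquitin shuttles, passed in STAC3 RNAi cells alone (-0.38, adjusted p = 0.00166, against -0.14 in control cells, adjusted p = 0.266), a contrast between cells that did not itself pass (adjusted p = 0.309).

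The assembly factors, which help build the ATPase ring and then leave it, moved apart. Psmd5 fell in both kinds of cell (-0.42 in STAC3 RNAi and -0.33 in control cells). The fall in STAC3 RNAi cells was -0.23 within the 12 arrays (adjusted p = 0.067), and that in control cells was lost in 7 of 24 alternatives (adjusted p up to 0.138): with no filter, without repeat arrays, and without control day 0 replicate 2 or 4 or control day 1 replicate 2, 3 or 4. Psmd10, also called gankyrin, rose in STAC3 RNAi cells (0.36, adjusted p = 0.00129) with 0.19 in control cells (adjusted p = 0.0836). Its other probes did not pass in STAC3 RNAi cells (0.14, adjusted p = 0.166, and 0.23, adjusted p = 0.0934). Psmd9 differed by -0.13 in STAC3 RNAi cells and by -0.11 in control cells without passing.

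STAC3 RNAi and control cells share no sample in this comparison. Across the 36 genes, 34 differences had the same sign in both (94.4%, beside 76.2% of all genes). In both kinds of cell 17 genes fell (47.2%, beside 14.5% of all genes), which is 85% of the 20 that fell in STAC3 RNAi cells (beside 68.5% for all genes) and 85% of the 20 that fell in control cells (beside 75.7%). Psmd4, Psme1 and Psme2 rose in both. The correlation of the 2 sets of differences was 0.86 (Spearman 0.80) over the 36 genes, which are not independent replicates, beside 0.83 (Spearman 0.77) over all genes. Psmb10 was the 1 gene that passed in opposite directions. Of the passing genes with further tested probes, 14 of 15 in STAC3 RNAi cells (all but Psme4) and 12 of 12 in control cells had every other probe with the same sign, and another probe passed too in 11 of those of STAC3 RNAi cells and 8 of those of control cells.

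**Figure D3:**
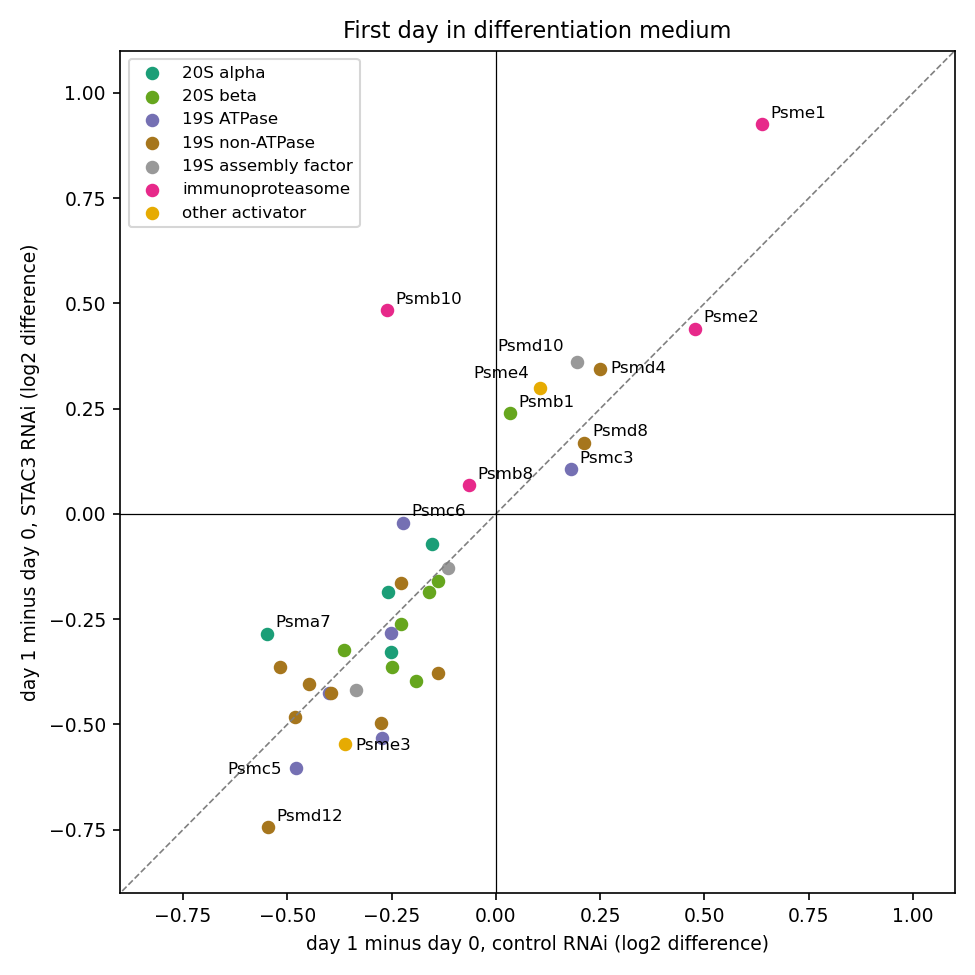
Each point is a gene, placed by its log2 difference, day 1 minus day 0, in control cells (x axis) and in STAC3 RNAi cells (y axis), coloured by role; the dashed line marks equal differences. Of 36 points, 26 lie below 0 on both axes, Psme1 and Psme2 lie at upper right, and Psmb10 lies far to the upper left.

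Promoter sequence was looked at because so many of these genes fell together. RefSeq promoters (GRCm38.p6, 250 bases before to 50 after the transcription start) were matched for 31 of the 36 genes. In yeast and mammals proteasome genes are known to be driven together, in mammals by Nfe2l1 through antioxidant response elements. The core of that element, TGACNNNGC on either strand, occurred in 6 of 31 promoters (19.4%), beside 14% of the promoters of all 27025 genes. The CCAAT box core, CCAAT on either strand, occurred in 9 of 31 (29%), beside 41.1% of all. Of the 17 genes that fell in both kinds of cell 15 had a promoter, and 3 of these held the antioxidant core: the cutting subunits Psmb5 and Psmb6 and the lid subunit Psmd12. Their promoters follow, 5′ to 3′ on the gene's strand with the match in capitals. The match lies at bases -47 to -39 from the start in Psmb5 and at -9 to -1 in Psmb6, with the first of the 50 bases counted as 0, and in Psmd12 it reads on the opposite strand at -247 to -239.
Psmb5, chr14:54617946-54618245, minus strand: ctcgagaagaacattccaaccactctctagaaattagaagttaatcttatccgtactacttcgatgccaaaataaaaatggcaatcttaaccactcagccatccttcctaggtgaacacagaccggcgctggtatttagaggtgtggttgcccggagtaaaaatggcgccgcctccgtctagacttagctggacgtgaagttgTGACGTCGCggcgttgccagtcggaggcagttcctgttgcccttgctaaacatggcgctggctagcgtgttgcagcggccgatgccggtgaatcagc
Psmb6, chr11:70525107-70525406, plus strand: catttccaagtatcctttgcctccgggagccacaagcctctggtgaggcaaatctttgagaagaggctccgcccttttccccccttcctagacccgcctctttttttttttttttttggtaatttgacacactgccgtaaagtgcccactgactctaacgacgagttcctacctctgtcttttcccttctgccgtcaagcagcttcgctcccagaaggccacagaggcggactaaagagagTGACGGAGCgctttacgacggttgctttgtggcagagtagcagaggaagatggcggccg
Psmd12, chr11:107479278-107479577, plus strand: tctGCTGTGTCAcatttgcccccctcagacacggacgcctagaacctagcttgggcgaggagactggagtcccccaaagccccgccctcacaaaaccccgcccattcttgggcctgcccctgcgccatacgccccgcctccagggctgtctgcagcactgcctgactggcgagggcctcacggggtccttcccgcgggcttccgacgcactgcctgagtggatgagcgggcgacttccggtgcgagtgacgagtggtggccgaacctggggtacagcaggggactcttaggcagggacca

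Psme1 and Psme2 rose where most core genes fell. Psme1, a subunit of the ring that opens the core without ubiquitin, had 11.45, 11.56, 11.52 and 11.58 in STAC3 RNAi cells at day 1, against 10.58, 10.61, 10.58 and 10.63 at day 0, and 11.41, 11.28, 11.09 and 11.13 in control cells at day 1, against 10.55, 10.53 and 10.69 at day 0. The days were far apart in both kinds of cell, and at day 1 every STAC3 RNAi sample lay above every control sample. Psme1 was 1.90-fold higher at day 1 in STAC3 RNAi cells (0.93, SE 0.07, adjusted p = 2.09e-08) and 1.56-fold higher in control cells (0.64, SE 0.07, adjusted p = 3.95e-06). Within day 1 it was higher in STAC3 RNAi cells by 0.30 (SE 0.07, adjusted p = 0.00226), and its second probe by 0.24 (adjusted p = 0.0241). At day 0 the difference was 0.01 (adjusted p = 0.936), and the test of the difference between days missed the threshold (0.29, SE 0.10, adjusted p = 0.107).

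Psme2, the partner of Psme1 in the ring, had 9.47, 9.23, 9.31 and 9.25 in STAC3 RNAi cells at day 1, against 8.77, 8.97, 8.88 and 8.87 at day 0, and 9.70, 9.52, 9.47 and 9.38 in control cells at day 1, against 9.06, 8.93 and 9.12 at day 0. It rose by 0.44 (SE 0.07, adjusted p = 0.000188) in STAC3 RNAi cells and by 0.48 (SE 0.08, adjusted p = 0.000222) in control cells, so both ring genes were higher at day 1. Between STAC3 RNAi and control cells at day 1 Psme2 differed by -0.20 (adjusted p = 0.0487), opposite in sign to Psme1, with overlapping samples, and this call was lost in 17 of 24 alternatives (adjusted p up to 0.261). Psme1 and Psme2 lie on chromosome 14 with 1 annotated gene between them in the RefSeq annotation. After these values were seen, 2 interferon motifs were searched as well. The interferon-stimulated response element core, GAAA, any 2 bases and GAAA on either strand, occurred in 4 of 31 promoters (12.9%, beside 3.99% of all genes), those of Psmb3, Psmd4, Psmd9 and Psme1. The interferon-activated site core, TTCNNNGAA, occurred in 2 of 31 (6.45%, beside 9.55%), those of the immunoproteasome gene Psmb8 and of Psmd2. The Psme1 promoter is shown as the 1 immunoproteasome promoter with a match to the response element core, which reads on the opposite strand at bases 9 to 18 after the start.
Psme1, chr14:55578244-55578543, plus strand: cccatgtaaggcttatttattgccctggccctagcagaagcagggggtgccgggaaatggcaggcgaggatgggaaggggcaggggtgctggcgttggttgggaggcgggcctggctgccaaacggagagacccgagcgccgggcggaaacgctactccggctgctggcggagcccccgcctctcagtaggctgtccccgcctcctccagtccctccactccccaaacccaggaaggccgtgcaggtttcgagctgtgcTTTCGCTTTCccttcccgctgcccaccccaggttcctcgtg

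Psmb10, which replaces the trypsin-like subunit Psmb7, was higher with STAC3 RNAi at day 1, with no difference detected at day 0. It had 9.31, 9.35, 9.56 and 9.19 in STAC3 RNAi cells at day 1, against 8.78, 8.63, 8.61 and 8.53 in control cells at day 1, and 8.93, 8.92, 8.79 and 8.84 in STAC3 RNAi cells at day 0, against 8.97, 8.96 and 8.77 in control cells at day 0. The day 1 RNAi samples stood above all 11 others, while the day 0 groups overlapped. At day 1 Psmb10 was 1.64-fold higher in STAC3 RNAi cells (0.72, SE 0.08, adjusted p = 4.64e-06), and at day 0 the difference was -0.03 (SE 0.08, adjusted p = 0.871).

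The RNAi effect on Psmb10 was larger at day 1 than at day 0 by 0.75 (SE 0.11, adjusted p = 0.002). Within the 12 arrays this difference was 0.75 (adjusted p = 0.00114) and within the 6 arrays 0.59 (adjusted p = 0.602), while the day 1 rise was 0.71 within the 12 arrays and 0.72 within the 6 arrays. Psmb10 was the 1 gene of 36 to pass that test, which 5.47% of all genes passed, 2.77% as higher and 2.7% as lower. Psme1 passed as well within the 12 arrays, and 2 genes passed without control day 1 replicate 1. Day 1 minus day 0, it rose by 0.48 (SE 0.08, adjusted p = 0.000103) in STAC3 RNAi cells and fell by 0.26 (SE 0.08, adjusted p = 0.022) in control cells. The fall in control cells was lost on leaving out control day 0 replicate 2 or 3 or control day 1 replicate 4 and with the mean of both probes (adjusted p up to 0.0937), and within the 6 arrays the value was 0.030 (adjusted p = 0.92). Its second probe was higher by 0.53 at day 1 in STAC3 RNAi cells (adjusted p = 0.00091), and the difference between days of that probe was 0.62 (adjusted p = 0.0291). Psmb8, which replaces Psmb5, had 6.90, 6.86, 6.93 and 6.82 in STAC3 RNAi cells at day 1, against 6.78, 6.79, 6.80 and 6.78 in control cells, and 6.89, 6.80, 6.80 and 6.75 in STAC3 RNAi cells at day 0, against 6.77, 6.85 and 6.94 in control cells. It was detected on 5 of 18 arrays and passed no comparison.

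**Figure D4:**
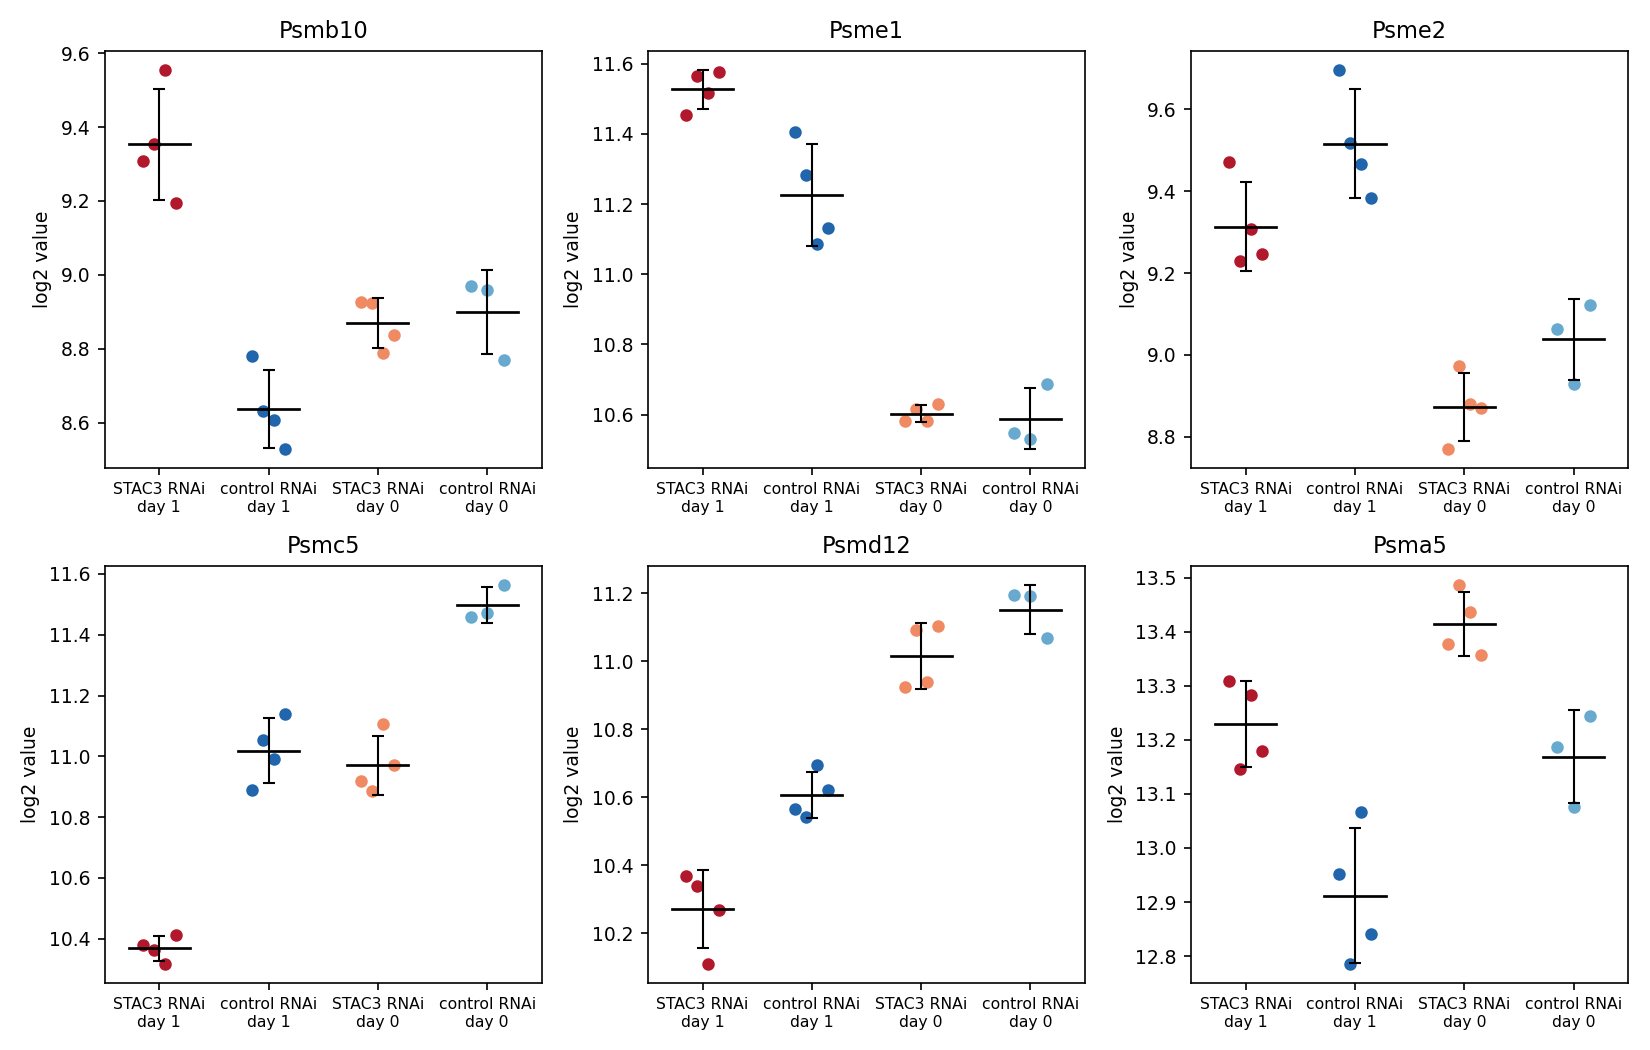
Each point is a sample, placed by its log2 value for 6 genes; lines and bars give the group mean and SD, and each panel has its own y axis that does not start at 0. Psmb10 stands apart in STAC3 RNAi cells at day 1, Psme1 and Psme2 are high at day 1, and Psmc5 is low in STAC3 RNAi cells on both days.

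The second comparison asks what STAC3 RNAi changed within each day. At day 1 6 of 36 genes rose and 6 fell (33.3%), where 37.7% of all genes passed, 19.9% as higher and 17.8% as lower, so the proteasome genes were called about as often as genes in general. Their median difference was -0.01, beside 0.01 over all genes. At day 0 2 of 36 rose and 1 fell (8.33%), where 14.7% of all genes passed, 8.05% as higher and 6.63% as lower, and the median was -0.00, beside 0.01 over all genes. The count of 3 at day 0 became 1 without control replicate 2 or 3, 6 within the 12 arrays and 0 within the 6 arrays (2 at an unadjusted limma p below 0.05), and the count of 12 at day 1 became 3 within the 6 arrays. The 33 genes that did not pass at day 0 had 95% intervals within 0.5 of 0, except Psme3. Both days' comparisons use samples that also enter day 1 minus day 0, so values are given side by side without a test of their likeness.

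In the cap, Psmc5, an ATPase that threads the substrate into the core, gave the largest RNAi difference on day 0 and the largest fall on day 1. It had 10.38, 10.36, 10.32 and 10.41 in STAC3 RNAi cells at day 1, against 10.89, 11.06, 10.99 and 11.14 in control cells, and 10.92, 10.89, 11.11 and 10.97 in STAC3 RNAi cells at day 0, against 11.46, 11.47 and 11.57 in control cells. The groups did not overlap on either day, and the STAC3 RNAi samples of day 0 lay at the level of the control samples of day 1. Psmc5 was 1.57-fold lower at day 1 (-0.65, SE 0.06, adjusted p = 1.36e-06) and 1.44-fold lower at day 0 (-0.53, SE 0.07, adjusted p = 9.84e-05), and its second probe fell by 0.75 at day 1 and by 0.56 at day 0 (both passed). It was also lower at day 1 than at day 0, by 0.60 in STAC3 RNAi cells and by 0.48 in control cells, and the RNAi difference was not shown to differ between days (-0.12, SE 0.09, adjusted p = 0.512).

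The other ATPases gave smaller values. Psmc2 did not pass by its chosen probe (-0.15 at day 1, adjusted p = 0.0825, and -0.12 at day 0, adjusted p = 0.302). Its second probe passed as lower at day 1 (-0.30, adjusted p = 0.0262) and gave -0.33 at day 0 (adjusted p = 0.0567), without overlap on either day. Psmc4 had 11.22, 10.96, 11.05 and 11.19 in STAC3 RNAi cells at day 1, against 11.22, 11.35, 11.38 and 11.39 in control cells, so that RNAi replicate 1 equalled the lowest control at 2 decimals. It fell by 0.23 (SE 0.08, adjusted p = 0.0405), and the call was lost with a trended prior or on leaving out any of control replicates 2, 3 and 4 or STAC3 RNAi replicates 2 and 3 (adjusted p up to 0.131). At day 0 its difference was 0.03 (adjusted p = 0.877).

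Of the non-ATPases, Psmd12 fell at day 1 by 0.33 (SE 0.07, adjusted p = 0.00112), its samples given above not overlapping, and differed by -0.14 at day 0 (adjusted p = 0.249). Psmd1 had 12.80, 12.93, 13.03 and 12.75 in STAC3 RNAi cells at day 1, against 12.51, 12.56, 12.71 and 12.71 in control cells, and 13.34, 13.35, 13.27 and 13.26 in STAC3 RNAi cells at day 0, against 13.01, 12.95 and 13.08 in control cells. The RNAi samples were higher without overlap on both days, and Psmd1 rose by 0.26 (SE 0.07, adjusted p = 0.00757) at day 1 and by 0.29 (SE 0.07, adjusted p = 0.0159) at day 0. Its other 2 probes did not pass on either day (0.09 and 0.09 at day 1, 0.18 and -0.23 at day 0), and with the mean of its probes the difference was 0.15 at day 1 (adjusted p = 0.144) and 0.08 at day 0 (adjusted p = 0.583). The day 0 call was also lost without control replicate 2 (adjusted p = 0.0527) or 3 (adjusted p = 0.0748). The day 1 call of Psmd1 was also lost within the 12 arrays (0.18, adjusted p = 0.0551).

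Psmd11 had 8.80, 9.03, 8.47 and 9.0 in STAC3 RNAi cells at day 1, against 8.57, 8.51, 8.56 and 8.58 in control cells. RNAi replicate 3 lay under all controls, and the rise of 0.27 (SE 0.10, adjusted p = 0.0421) was lost in 12 of 24 alternatives (adjusted p up to 0.14). Its difference at day 0 was 0.23 (adjusted p = 0.185). The second probe of Psmd11 gave 0.07 at day 1 (adjusted p = 0.66) and -0.06 at day 0 (adjusted p = 0.795). No assembly factor passed an RNAi comparison by its chosen probe, and their differences ran from -0.04 to 0.03 at day 1 and from -0.13 to 0.04 at day 0. A second probe of Psmd10 passed as lower at day 1 (-0.21, adjusted p = 0.0469), with overlapping samples. The chosen probe gave 0.03 (adjusted p = 0.79), so the probes of Psmd10 disagree.

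In the core, Psma5, an alpha ring subunit, had 13.31, 13.15, 13.28 and 13.18 in STAC3 RNAi cells at day 1, against 12.95, 12.79, 13.07 and 12.84 in control cells, and 13.38, 13.49, 13.44 and 13.36 in STAC3 RNAi cells at day 0, against 13.19, 13.08 and 13.24 in control cells. The RNAi samples were higher without overlap on both days. Psma5 rose by 0.32 (SE 0.07, adjusted p = 0.00154) at day 1 and by 0.25 (SE 0.07, adjusted p = 0.0333) at day 0. The day 0 call was lost with the replicate block (adjusted p = 0.0592) and without control replicate 2 or 3 or STAC3 RNAi replicate 1, 2 or 3 (adjusted p up to 0.155).

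Psmb3, a structural beta subunit, had 12.26, 12.25, 12.33 and 12.45 in STAC3 RNAi cells at day 1, against 12.53, 12.51, 12.54 and 12.68 in control cells. All RNAi samples lay below the controls, and Psmb3 fell by 0.24 (SE 0.06, adjusted p = 0.0036). At day 0 it had 12.69, 12.78, 12.67 and 12.74 in STAC3 RNAi cells, against 12.72, 12.74 and 12.81 in control cells, a difference of -0.04 (adjusted p = 0.752). None of the 3 cutting subunits passed: at day 1 Psmb5 differed by -0.18, Psmb6 by -0.09 and Psmb7 by -0.05, and at day 0 by -0.22, 0.02 and -0.02. Psma7 gave 0.34 at day 1 (SE 0.13, adjusted p = 0.0583) and passed in 9 of 24 alternatives.

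**Figure D5:**
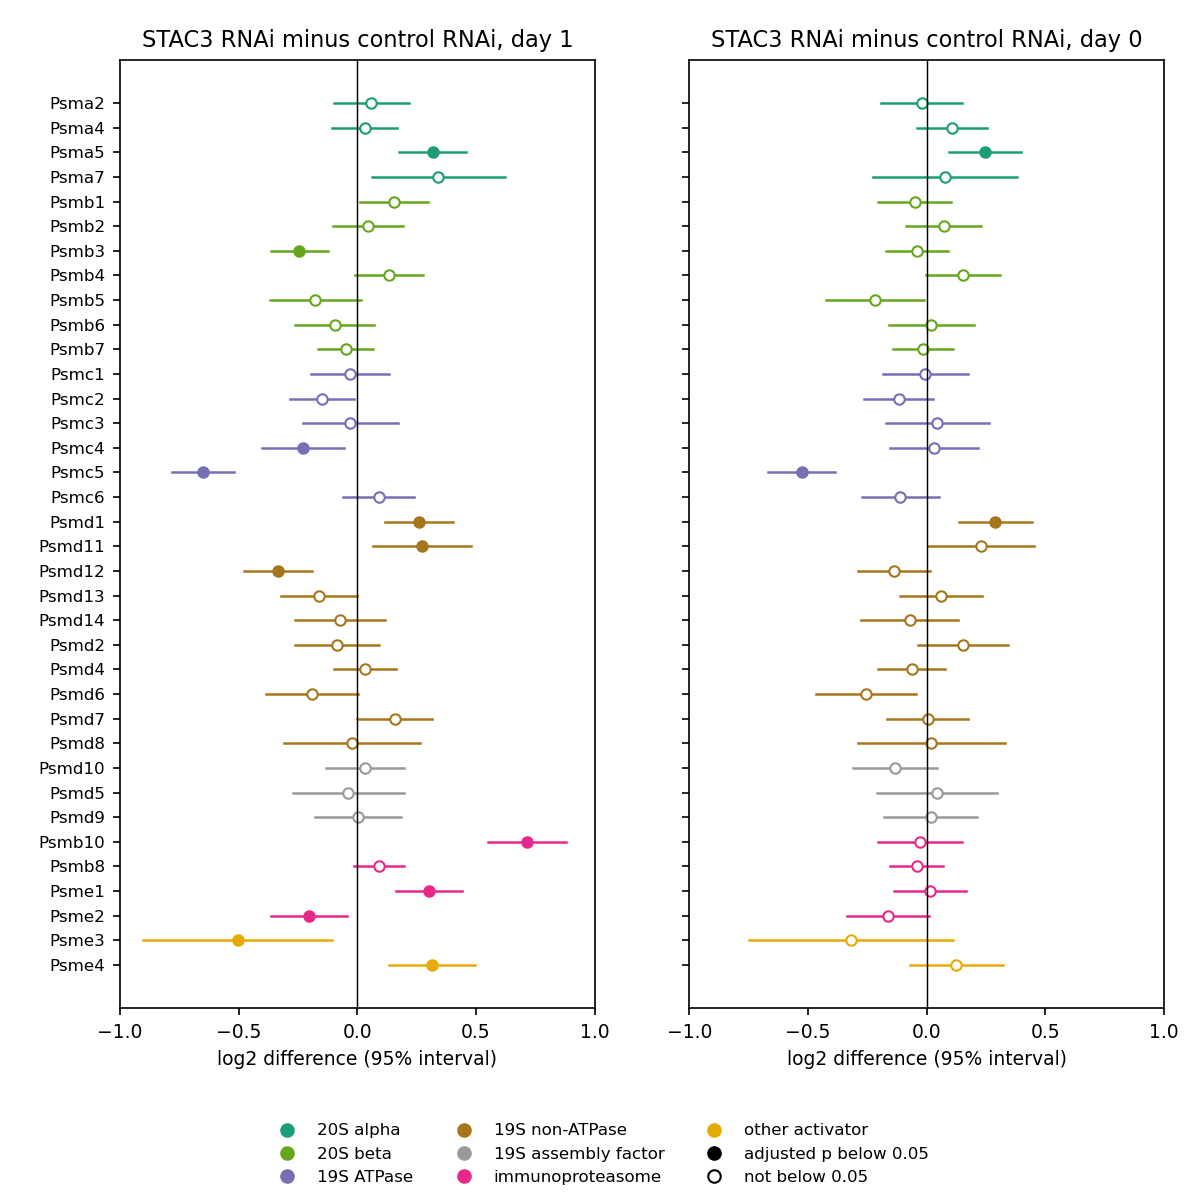
Points give the log2 difference, STAC3 RNAi minus control RNAi, for each gene at day 1 (left) and day 0 (right), with 95% intervals; filled points passed at an adjusted p below 0.05. At day 1 Psmb10 lies farthest right and Psmc5 farthest left, and at day 0 Psmc5, Psma5 and Psmd1 are the 3 filled points.

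Of the other activators, Psme4, a large single-chain activator of the core, had 11.40, 11.71, 11.29 and 11.34 in STAC3 RNAi cells at day 1, against 11.04, 11.13, 11.08 and 11.22 in control cells. Every RNAi sample was higher, and Psme4 rose by 0.32 (SE 0.09, adjusted p = 0.00932), while its second probe gave 0.05 (adjusted p = 0.559). At day 0 it had 11.21, 11.04, 11.12 and 11.17 in STAC3 RNAi cells, against 10.86, 11.05 and 11.13 in control cells, a difference of 0.12 (adjusted p = 0.44). Psme3, which forms a nuclear ring of its own, had 9.60, 9.47, 10.04 and 8.91 in STAC3 RNAi cells at day 1, against 10.25, 9.66, 10.03 and 10.08 in control cells. These samples overlapped, and the fall of 0.50 (SE 0.19, adjusted p = 0.0498) was lost in 13 of 24 alternatives (adjusted p up to 0.153), and without STAC3 RNAi replicate 4 of day 1 it was -0.31. Psme3 was also the gene whose repeat arrays differed most from their partners, by 0.38 to 0.53, in all 3 repeated samples. Day 1 minus day 0, Psme4 rose by 0.30 in STAC3 RNAi cells (adjusted p = 0.0101) with 0.11 in control cells (adjusted p = 0.417), and Psme3 fell by 0.55 in STAC3 RNAi cells (adjusted p = 0.0281) with -0.36 in control cells (adjusted p = 0.191). The fall of Psme3 was -0.35 without STAC3 RNAi day 1 replicate 4 (adjusted p = 0.0879), and was also lost without day 1 replicate 2 or day 0 replicate 1, 2 or 4 of those cells (adjusted p up to 0.088).

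Genes that work with the proteasome were taken from lists. Of 10 shuttles, receptors and partners tested, 3 rose and 1 fell with STAC3 RNAi at day 1 (beside 19.9% of all genes higher and 17.8% lower), and 2 rose at day 0 (beside 8.05% higher). Ubqln1, a shuttle that brings tagged proteins to the cap, gave 0.85 at day 1 (SE 0.09, adjusted p = 3e-06) and 0.82 at day 0 (SE 0.09, adjusted p = 4.43e-05), but its other 2 probes gave -0.15 and -0.25 at day 1 and 0.06 and 0.17 at day 0 without passing, so its probes disagree. Ubqln4, of the same family, rose by 0.40 at day 1 (adjusted p = 0.00644) and by 0.52 at day 0 (adjusted p = 0.0054). At day 1 Vcp, the ATPase that extracts tagged proteins, rose by 0.23 (adjusted p = 0.0102), and Ube3c, a proteasome-bound ubiquitin ligase, fell by 0.38 (adjusted p = 0.0085). Of 5 core assembly chaperones Psmg2 fell at day 1 (-0.21, adjusted p = 0.0132). Nfe2l1 and Nfe2l2, which drive proteasome genes, did not pass on either day, nor did Uba6, the 1 gene tested from the ubiquitin and E1 list.

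Day 1 minus day 0, 4 of the 10 shuttles, receptors and partners fell in STAC3 RNAi cells (beside 21.1% of all genes), and 3 fell and 1 rose in control cells (beside 19.1% of all genes lower and 20.7% higher). The deubiquitinase Uchl5, which trims chains on the cap, fell by 0.98 in STAC3 RNAi cells (adjusted p = 7.3e-08) and by 0.81 in control cells (adjusted p = 2.02e-06), with its 3 other probes also lower. Usp14, the other cap-bound deubiquitinase, fell by 0.24 in STAC3 RNAi cells (adjusted p = 0.0201) and by 0.43 in control cells (adjusted p = 0.000624), but its second probe gave -0.01 in both without passing. The chaperones Psmg1 and Psmg2 also fell in both, while Nfe2l1 rose by 0.60 in STAC3 RNAi cells (adjusted p = 0.000847) and by 0.58 in control cells (adjusted p = 0.00234). Of 7 muscle ubiquitin ligases, 3 rose and 2 fell in STAC3 RNAi cells (beside 24.2% of all genes higher and 21.1% lower). In control cells 2 rose and 1 fell (beside 20.7% of all genes higher and 19.1% lower). Fbxo32, a ligase known from muscle wasting, rose by 1.15 in STAC3 RNAi cells (adjusted p = 1.63e-08) and by 1.18 in control cells (adjusted p = 5.28e-08), with its other probes higher too. Trim63, the other ligase of muscle wasting, rose by 0.40 in control cells (adjusted p = 0.00926) and was lower in STAC3 RNAi than in control cells at day 1 (-0.40, adjusted p = 0.00638). It was detected on 7 of 18 arrays. With STAC3 RNAi Fbxo30 rose by 0.36 at day 1 (adjusted p = 0.00173) and by 0.28 at day 0 (adjusted p = 0.0333), and Trim32 by 0.23 at day 1 (adjusted p = 0.0164). The second probe of Trim32 gave 0.07 at day 1 (adjusted p = 0.417), with overlapping samples. Of the 7 ligases 2 rose and 1 fell with STAC3 RNAi at day 1 (beside 19.9% of all genes higher and 17.8% lower). At day 0 1 rose (beside 8.05% higher).

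Of 11 interferon and antigen presentation genes tested, 5 rose and 1 fell with STAC3 RNAi at day 1 (beside 19.9% of all genes higher and 17.8% lower), and 1 rose at day 0 (beside 8.05% higher). Irf1, a transcription factor of the interferon response known to drive immunoproteasome genes, averaged 10.87 ± 0.19 in STAC3 RNAi cells and 9.96 ± 0.11 in control cells at day 1 (SD, n = 4 each), and 10.46 ± 0.06 in STAC3 RNAi cells (SD, n = 4) and 9.97 ± 0.12 in control cells (SD, n = 3) at day 0. It rose by 0.91 (SE 0.09, adjusted p = 1.27e-06) at day 1 and by 0.49 (SE 0.09, adjusted p = 0.00249) at day 0, and 3 of its 4 other probes passed as higher at day 1. Also at day 1, B2m rose by 0.19, H2-K1 by 0.28, Ifit3 by 0.24 and Oasl2 by 0.49, while H2-D1 fell by 0.52 (adjusted p between 0.000494 and 0.0436). B2m encodes the light chain, and H2-K1 and H2-D1 heavy chains, of the molecules that display proteasome products. The second probe of B2m also passed (0.15). That of H2-D1 went the other way, by 0.13 (adjusted p = 0.0794) with every STAC3 RNAi sample above every control sample, so its probes disagree. Those of H2-K1 (detected on 4 of 18 arrays) and Ifit3 (8 of 18) did not pass. Day 1 minus day 0, 8 of the 11 rose and 1 fell in STAC3 RNAi cells (beside 24.2% of all genes higher and 21.1% lower), and 6 rose in control cells (beside 20.7% higher). B2m rose by 0.88 in STAC3 RNAi cells (adjusted p = 5.3e-08) and by 0.68 in control cells (adjusted p = 3.11e-06). Tapbp, which helps load peptides onto these molecules, rose by 0.73 in STAC3 RNAi cells (adjusted p = 0.000133) and by 0.48 in control cells (adjusted p = 0.00862). Isg15, a ubiquitin-like protein induced by interferon, fell by 0.48 in STAC3 RNAi cells (adjusted p = 0.00949).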

How the data were processed

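Illumina bead arrays of 15 samples were analysed, 18 arrays with 3 repeats, each averaged with its partner. The deposited value table holds 24538 probes as log2 values that the authors had normalized with lumi (per the submitters' processing notes, its version not given in the sources). Per the file headers, the deposited non-normalized table holds each probe's intensity with its detection p-value. Its column names differ from the value table for 12 of 18 arrays of identical probe ranking (rank correlation 1, others at most 0.958). Repeat arrays lie closest to their partners in the value table, whereas in the other table the partner ranks 12, 4 and 17 of 17, so the value table was used, as earlier work on these data had done.

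A probe was kept if 3 or more arrays had its detection p-value under 0.01 (18408 probes). A 4-group limma 3.58.1 model (R 4.3.3) gave all tests, with Benjamini-Hochberg adjustment over those probes. The code was tested on simulated data with known changes. Per-sample values are given for genes passing the RNAi comparisons or the test between days, for the immunoproteasome genes and for examples picked after their values were seen. Alternatives covered normalization, filter, probe choice, repeat arrays, replicate number, array set, prior and leaving out each sample. Same-numbered control samples of both days deviated together (correlations of 0.13, 0.21 and 0.23, all above 0.1). In control cells the numbers were therefore taken to pair samples. The main p-values of that comparison still come from the fit without pairing. The replicate block was fitted to all 15 samples and so to the STAC3 RNAi cells as well. Calls that it changed in control cells between days and at day 0 are given above. At day 1 Psma7 passed with it (0.34, adjusted p = 0.0187), while Psme2 (adjusted p = 0.0515) and Psme3 (adjusted p = 0.0576) did not. In STAC3 RNAi cells between days 29 genes passed with it, against 27 without, and those gained are not named here. Members, lists and motifs were chosen with earlier results of these data known. Matches of different motifs were counted whether or not they overlap. The labels call the replicates biological samples without naming separate transfections, so p-values measure the spread between these samples. The number of arrays limits precision.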

Additional observations from a re-analysis of the deposited data

Results flagged for a closer look

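The RNAi effect on Psmb10 differed between the days by 0.75 on the log2 scale (SE 0.11, limma adjusted p = 0.002), with a difference of 0.72 at day 1 and of -0.03 at day 0, and all 4 STAC3 RNAi samples of day 1 lay above all 4 control samples.

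In 4 of 108 combinations of gene and group, 1 sample lay far from the other 3, where about 1 in 20, or 5.4, would do so by chance. Psmb4 was 13.24 in STAC3 RNAi day 0 replicate 4, with the others at 13.46 to 13.50. Psmc6 was 6.77 in control day 1 replicate 1, with the others at 6.91 to 6.94. Psmd10 was 10.67 in STAC3 RNAi day 1 replicate 3, with the others at 10.89 to 10.93. Psmd5 was 8.46 in STAC3 RNAi day 0 replicate 1, with the others at 8.64 to 8.66.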

How the results depend on the processing

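Of the genes passing, 23 of 27 in day 1 minus day 0 of STAC3 RNAi cells, 14 of 23 in that of control cells, 7 of 12 in STAC3 RNAi minus control at day 1, 1 of 3 (Psmc5) at day 0 and 1 of 1 (Psmb10) in the difference between days passed in 24 of 26 alternatives. The remaining settings, the fit within the 6 arrays and the non-normalized table, are left out of that count and given below, and these calls of Psmc5 and Psmb10 were lost in both. Leaving out 1 sample at a time gave 1 to 4 genes passing at day 0 (1 without control day 0 replicate 2 or 3), 9 to 12 at day 1, 24 to 28 in STAC3 RNAi and 19 to 24 in control cells between days, and 1 to 2 for the difference between days. The median differences then ran from -0.017 to 0.0048 at day 0, from -0.034 to 0.028 at day 1, from -0.29 to -0.24 between days in STAC3 RNAi cells, from -0.25 to -0.22 in control cells and from -0.028 to 0.0048 for the difference between days.

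In the other comparisons, where same-numbered samples did not deviate together throughout (-0.20 to 0.49 over all 14 pairs, 9 above 0.1), the numbers were not taken to pair samples. Some pairs of STAC3 RNAi with control correlated more than the control pairs did, up to 0.49 at day 0 and 0.39 at day 1. With the replicate block 2 genes passed at day 0, 11 at day 1, 29 and 23 between days in STAC3 RNAi and control cells, and 1 in the difference between days.

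Within the 12 arrays 6 genes passed at day 0 and 2 in the difference between days (Psme1 beside Psmb10), and the medians between days were -0.24 in STAC3 RNAi and -0.21 in control cells. Within the 6 arrays, 0 genes passed at day 0 (2 at an unadjusted limma p below 0.05), 3 at day 1, 12 and 5 between days in STAC3 RNAi and control cells, and 0 in the difference between days (1 unadjusted). There Psmb10 in control cells turned from a fall to a rise of 0.030 (adjusted p = 0.92). With the non-normalized table taken by its column names 0 genes passed at day 0 (2 unadjusted), 0 at day 1 (0 unadjusted), 3 and 0 between days in STAC3 RNAi and control cells (12 and 0 unadjusted), and 0 in the difference (1 unadjusted), with medians of 0.10 at day 0, -0.058 in control cells and -0.16 in the difference. The cause was not tested. The other settings kept each of these counts within 1.5 times the reported one, with exceptions among the fits without 1 sample. At day 0 1 gene passed without control day 0 replicate 2 or 3. In the difference between days 2 genes passed without control day 1 replicate 1.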
